A study of Mus musculus with 6 samples.

Results

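Promoter contacts were compared between mouse embryonic stem cells depleted of Brg1 and control-transfected cells, in promoter-capture Micro-C libraries. The comparison takes in 4 of the 6 libraries of the series, all rows of their loop lists and all 33243 entries of the authors' comparison of both groups. Brg1KD is 2 libraries of E14 cells, a wild-type male line kept in serum and LIF, transfected with esiRNA (short interfering RNAs cut from a longer double-stranded RNA) against Smarca4, the gene of Brg1, and harvested 48 h later. Control is 2 libraries of the same line transfected with esiRNA against EGFP. The Ino80KD libraries serve only where a batch is compared. Replicate 1 of both groups is in batch 1, Brg1KD replicate 2 in batch 3 and Control replicate 2 in batch 2, per the labels. The labels do not state whether the replicates are separate cultures, and the spread between libraries may be technical. RNA and protein were not measured in these libraries, so neither the depth of the knockdown nor the stem cell markers could be checked.

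Brg1 is the ATPase of esBAF, the form of the SWI/SNF chromatin remodeller found in embryonic stem cells. It moves and evicts nucleosomes at promoters and enhancers, and in these cells it is known to work at pluripotency genes and to oppose or assist polycomb silencing depending on the gene. Many mammalian promoters lie in CpG islands, stretches rich in CpG dinucleotides that stay largely free of DNA methylation. Promoters of housekeeping and developmental genes are mostly of that kind, while promoters of many tissue-specific genes hold few CpG.

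A loop here is a baited promoter fragment paired with another end. The authors gave each loop a score, used here only as their threshold, and listed loops from a score of 5 up. A pair of ends that is not listed scored lower and may still be in contact. The lists held 17567 and 16585 loops in Brg1KD and 19045 and 18220 in Control. Of these, 1504 and 1023 in Brg1KD and 1003 and 884 in Control fell on 1 bait of chromosome 2, which is left out of every value below. The read depth of the libraries is unknown, so differences in depth and in contacts cannot be told apart in the number of loops listed. The authors' comparison gives a log2 fold change for a bait and a region, without naming its direction. An entry of that comparison overlapped 725 loops listed by both Brg1KD libraries and neither Control library. Of these, 83.6% had a mean value above 0 in the authors' deposited table. Of 1317 loops with such an entry, listed by both Control libraries and neither Brg1KD library, 16.9% did. Values above 0 are therefore read as higher in Brg1KD. After adjustment no p of the authors' deposited table was under 0.05, and the smallest was 1.00. Entries are called lower or higher below where their unadjusted p was under 0.05. That threshold was reached in the authors' deposited table by 275 lower entries (0.827%) and 124 higher entries (0.373%).

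The promoters at both ends of that comparison differed in base composition. The sequences below are the windows from 250 bases before to 50 bases after the start of a gene, from RefSeq on GRCm38.p6, whose chromosomes are those of mm10. They are shown because the count of CpG in this window is what the fold changes were ordered by. Each CpG is in capitals, and each sequence is read 5′ to 3′ on the gene's strand. The first 3 belong to the baits with the smallest p among lower entries that have a listed promoter: Rbmxl2 (chr7:107209195-107209494, plus strand), an RNA-binding protein gene of male germ cells, Zic5 (chr14:122465609-122465908, minus strand), a zinc finger transcription factor, and Hmgb2 (chr8:57511593-57511892, plus strand), a chromatin protein with HMG boxes.
Rbmxl2: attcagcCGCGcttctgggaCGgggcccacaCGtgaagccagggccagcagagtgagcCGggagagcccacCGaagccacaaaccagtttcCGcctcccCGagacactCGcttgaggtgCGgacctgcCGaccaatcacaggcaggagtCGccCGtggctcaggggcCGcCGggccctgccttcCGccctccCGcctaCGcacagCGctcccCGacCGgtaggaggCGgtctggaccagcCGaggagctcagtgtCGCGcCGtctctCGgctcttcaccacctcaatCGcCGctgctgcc
Zic5: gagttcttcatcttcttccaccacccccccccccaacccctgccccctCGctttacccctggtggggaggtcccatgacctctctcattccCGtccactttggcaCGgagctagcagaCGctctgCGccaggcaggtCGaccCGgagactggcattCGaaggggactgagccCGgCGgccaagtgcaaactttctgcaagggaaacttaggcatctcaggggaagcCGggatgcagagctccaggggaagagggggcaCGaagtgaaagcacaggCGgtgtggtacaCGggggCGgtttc
Hmgb2: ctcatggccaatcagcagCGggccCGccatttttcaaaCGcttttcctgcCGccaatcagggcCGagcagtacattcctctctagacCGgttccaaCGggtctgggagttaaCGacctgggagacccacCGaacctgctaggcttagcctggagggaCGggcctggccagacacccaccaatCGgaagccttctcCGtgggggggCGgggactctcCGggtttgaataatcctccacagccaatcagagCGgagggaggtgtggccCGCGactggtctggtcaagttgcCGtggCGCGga
The next 3 belong to the baits with the smallest p among higher entries: Gm15319 (chr8:20363153-20363452, minus strand), Cd300ld3 (chr11:115048281-115048580, minus strand), a member of the CD300 family of immune receptors, and Olfr600 (chr7:103346877-103347176, minus strand), an olfactory receptor.
Gm15319: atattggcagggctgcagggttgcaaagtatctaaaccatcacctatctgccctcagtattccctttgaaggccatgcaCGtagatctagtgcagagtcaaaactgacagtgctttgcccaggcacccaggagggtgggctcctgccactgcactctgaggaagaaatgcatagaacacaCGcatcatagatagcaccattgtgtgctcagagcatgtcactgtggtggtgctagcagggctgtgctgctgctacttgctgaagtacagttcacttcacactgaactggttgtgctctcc
Cd300ld3: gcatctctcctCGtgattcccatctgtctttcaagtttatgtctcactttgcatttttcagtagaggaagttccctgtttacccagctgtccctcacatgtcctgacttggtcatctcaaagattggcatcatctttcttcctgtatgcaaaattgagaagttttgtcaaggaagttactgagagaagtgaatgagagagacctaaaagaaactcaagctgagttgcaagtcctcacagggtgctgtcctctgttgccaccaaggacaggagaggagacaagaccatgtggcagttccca
Olfr600: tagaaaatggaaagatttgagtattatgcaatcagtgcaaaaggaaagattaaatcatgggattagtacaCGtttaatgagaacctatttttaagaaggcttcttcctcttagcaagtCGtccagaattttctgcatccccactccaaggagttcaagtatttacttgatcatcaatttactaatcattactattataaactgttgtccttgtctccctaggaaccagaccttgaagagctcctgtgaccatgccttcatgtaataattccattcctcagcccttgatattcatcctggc
The windows of Rbmxl2, Zic5 and Hmgb2 hold 29, 15 and 20 CpG. Those of Gm15319, Cd300ld3 and Olfr600 hold 2, 1 and 2. All windows follow annotated gene starts, and whether transcription starts there was not tested.

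Across all promoters with a listed window, contacts of CpG-dense promoters had lower values after Brg1 depletion and those of CpG-poor promoters had slightly higher values. In log2 fold change, the median entry of the authors' deposited table was 0.044 at promoters with 0 to 4 CpG and 0.0084 with 5 to 12. It was -0.064 with 13 to 20, -0.084 with 21 to 28 and -0.096 with 29 or more, against -0.0084 over all entries. These shifts are small beside the spread of single entries, whose quartiles in the authors' deposited table were -0.26 and 0.062 in the densest class and -0.13 and 0.21 in the poorest. The share of entries below 0 in the authors' deposited table ran through the same classes as 43.2%, 48.6%, 59.5%, 63.5% and 65.9%. The CpG classes were chosen after seeing the data. No value per library is given with these fold changes, so the shifts cannot be told apart from a difference of 1 library or batch. Entries of a bait overlap and share contacts, and neither entries nor baits are replicates of a group. Taken as 1 median per bait, 62.6% of 4071 CpG-dense baits (13 or more CpG) lay below 0 in the authors' deposited table, against 43.2% of 2517 baits with 0 to 4 CpG.

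**Figure D1:**
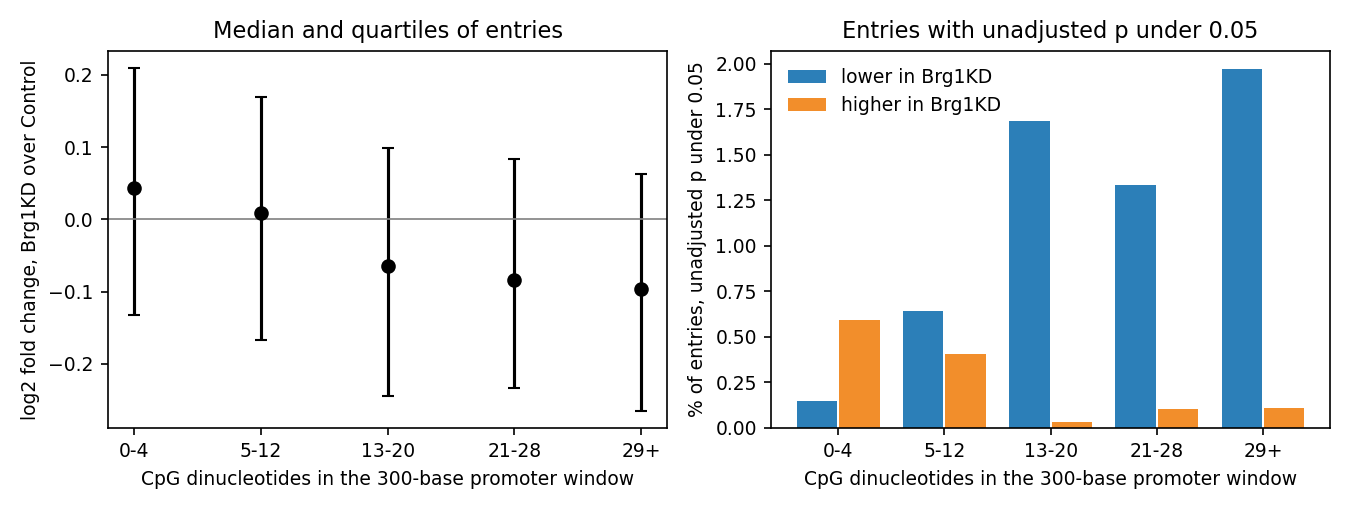
Log2 fold changes of the authors' table, Brg1KD over Control, by the number of CpG in the 300-base promoter window of the bait. The left panel shows the median (point) and quartiles (bars) of entries, which move from 0.044 in the class with the fewest CpG to -0.096 in the densest; the right panel shows the percent of entries with an unadjusted p under 0.05, lower and higher in Brg1KD.

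Called entries were split along the same line. Of 8683 entries at CpG-dense promoters in the authors' deposited table, 144 were lower and 7 higher, and of 6744 at promoters with 0 to 4 CpG, 10 were lower and 40 higher. By bait, 93 CpG-dense baits had a lower entry in the authors' deposited table and 7 a higher one. Of the baits with 0 to 4 CpG, 9 had a lower entry in the authors' deposited table and 28 a higher one. Over all baits of that table these numbers were 177 (1.25%) and 88 (0.622%) of 14144. The listed promoters of lower baits, 120 in number, held a median of 20 CpG and 77.5% of them were dense. Those of higher baits, 42 in number, held a median of 3 and 16.7% were dense. Of all 11152 baits with a listed promoter, 51.4% were dense, with a median of 13 CpG.

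At each distance up to 10 Mb the medians of all 3 CpG-dense classes lay below those of the class with 0 to 4 CpG, and beyond 250 kb the lowest median was not that of the densest class. For contacts under 50 kb the median of the authors' deposited table was 0.016 at promoters with 0 to 4 CpG and -0.12 at those with 29 or more. For 50 to 250 kb these medians of the authors' deposited table were 0.074 and -0.076, and for 250 kb to 1 Mb they were 0.024 and -0.11. For 1 to 10 Mb the authors' deposited table gave -0.028 and -0.26, with 309 and 93 entries, and the lowest median there, -0.33, was that of promoters with 13 to 20 CpG. CpG count and G+C content go together, so CpG-dense and other promoters were also set side by side within ranges of G+C. Inside a range the G+C content can still differ between them. At promoters of 50% to 60% G+C, the median of the authors' deposited table was -0.085 for CpG-dense promoters, with 44 lower and 2 higher entries of 2261. It was 0.056 for the other promoters of that G+C content in the authors' deposited table, with 15 lower and 32 higher of 4423. At 60% to 70% G+C the medians of the authors' deposited table were -0.071 and 0.060. Contacts of the poorest class were longer and weaker than those of the densest, with a median distance of 308 kb against 230 kb and a median mean signal of 41.9 against 73.6 in the authors' deposited table. Among entries of the authors' deposited table with a mean signal above the median, CpG-dense promoters minus those with 0 to 4 CpG gave a difference of medians of -0.14, and over all entries it was -0.12.

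In the loop lists, which carry no fold change, the ratio to Control was lower in the 3 CpG-dense classes than in the other classes, and lowest at 13 to 20 CpG. Loops listed at promoters with 0 to 4 CpG numbered 2401 and 2824 in Brg1KD and 3006 and 3106 in Control, a ratio of means of 0.855. At promoters with 29 or more CpG there were 1036 and 1082 in Brg1KD and 1391 and 1267 in Control, a ratio of 0.797. The ratios of the classes between were 0.842, 0.782 and 0.805, and within batch 1 the 5 ratios ran 0.799, 0.782, 0.732, 0.735 and 0.745. As a share of loops with a listed promoter, CpG-dense promoters held 44.4% and 42.5% in Brg1KD and 46.0% and 43.6% in Control. The groups overlapped in this share (exact two-sided permutation p = 0.67). The share of baits with fewer loops in both Brg1KD libraries than in both Control libraries was 9.10% in the densest class and 8.97% in the poorest, close to the 8.95% of all 15244 baits with a loop. In the classes between, the share was 9.22%, 10.5% and 9.01%. This count of baits thus did not separate the densest class from the poorest.

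Short motifs were counted in the same windows on both strands. GGGCGG, a site of Sp and KLF factors, was in 55% of the promoters of lower baits, 28.6% of those of higher baits and 47.2% of all. CCAAT, known as the site of NF-Y, was in 44.2%, 31.0% and 37.8%. TATAAA, the TATA box, was in 10 of the 120 promoters of lower baits, 8 of the 42 of higher baits and 13.7% of all. ATTTGCAT, the octamer of POU factors, was in 3.33%, 2.38% and 1.81%, which are 4 promoters of lower baits and 1 of higher baits. GGGCGG holds a CpG itself, so its share moves with the count of CpG.

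Fewer intrachromosomal loops were listed after Brg1 depletion, and in proportion the shortfall was largest for spans of 1 to 10 Mb. Brg1KD libraries listed 12254 and 12962 intrachromosomal loops, and Control libraries 15322 and 14394. The groups did not overlap, with a ratio of means of 0.849 overall and 0.800 within batch 1. The exact two-sided permutation p was 0.33, the smallest that 2 against 2 libraries allow, and 0.73 after Benjamini-Hochberg adjustment over 11 such measures. A loop was listed at 7642 and 7704 baits in Brg1KD and at 8849 and 8320 in Control. Interchromosomal loops did not separate the groups, with 3809 and 2600 in Brg1KD and 2720 and 2942 in Control. The highest count was that of Brg1KD replicate 1.

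Loops spanning 1 to 10 Mb numbered 431 and 781 in Brg1KD and 1076 and 1112 in Control. They made up 3.52% (95% Wilson interval 3.21 to 3.86) and 6.03% (5.63 to 6.45) of intrachromosomal loops in Brg1KD. In Control they made up 7.02% (6.63 to 7.44) and 7.73% (7.30 to 8.17), and the intervals cover counting error only. The groups did not overlap, with means of 4.77% ± 1.77 in Brg1KD and 7.37% ± 0.497 in Control (SD, n = 2 each, exact permutation p = 0.33, 0.73 adjusted). The Brg1KD libraries lay far apart. Without Brg1KD replicate 1 the difference was -1.35 percentage points in place of -2.60, and within batch 1 it was -3.51. In batch 3, Brg1KD replicate 2 listed 781 such loops and Ino80KD replicate 2 listed 1068. The lower share was not carried by chromosome 13 alone, where the histone clusters lie. Without it the shares were 3.12% and 5.49% in Brg1KD and 6.07% and 7.07% in Control. Fewer loops of this class were listed in both Brg1KD libraries than in both Control libraries on 12 of 20 chromosomes. These are counts as listed, not shares, and the Brg1KD lists are shorter.

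**Figure D2:**
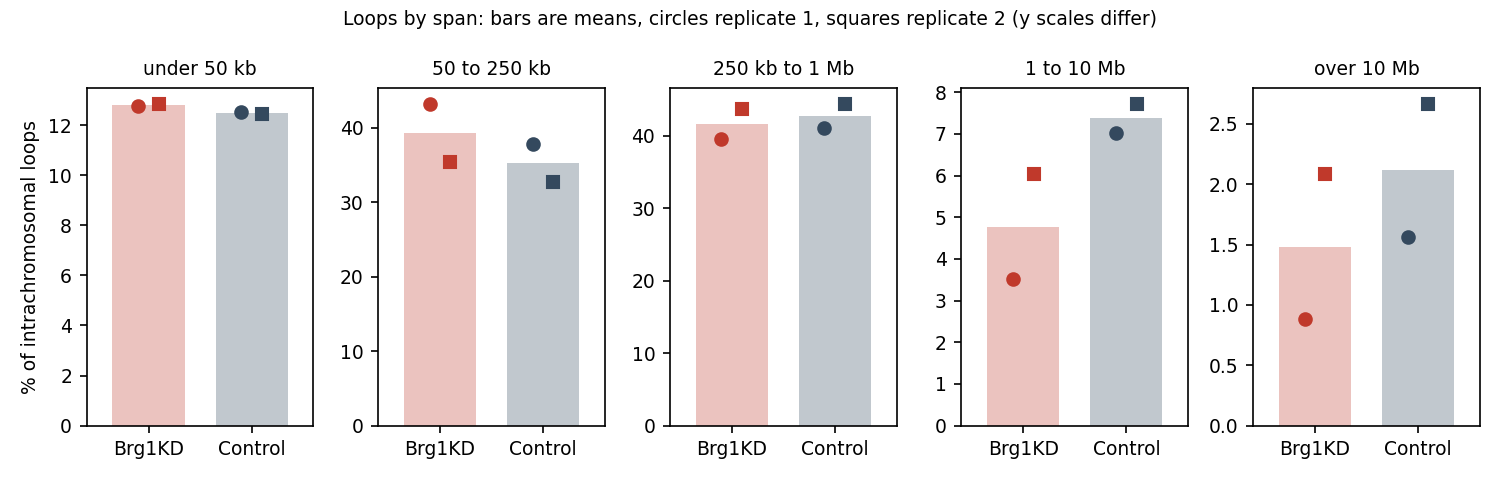
Percent of a library's intrachromosomal loops in 5 classes of span, with Brg1KD left of Control in each panel; bars are means of 2 libraries, circles replicate 1 and squares replicate 2, and the y scales differ. In the class of 1 to 10 Mb both Brg1KD libraries (3.52% and 6.03%) lie below both Control libraries (7.02% and 7.73%), while the classes of 50 to 250 kb, 250 kb to 1 Mb and over 10 Mb overlap.

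The other classes of span overlapped between groups, apart from that under 50 kb. Loops under 50 kb made up 12.8% and 12.9% in Brg1KD and 12.5% and 12.4% in Control, a difference of 0.32 percentage points. Those of 50 to 250 kb made up 43.3% and 35.4% in Brg1KD and 37.8% and 32.7% in Control, a difference of means of 4.05 percentage points with overlap. Replicate 1, which is in batch 1, was the higher library of both groups in that class. Control replicate 1 (37.8%) lay nearer to Brg1KD replicate 2 (35.4%) than to Brg1KD replicate 1 (43.3%). Whether batch set these shares was not tested. By identical ends, 730 loops were listed in both Brg1KD libraries and no Control library, and 1339 in both Control libraries and no Brg1KD library. Pairs that mix 1 library of each group shared 705 to 1020 loops found in no other library. For spans of 1 to 10 Mb the numbers were 16 in both Brg1KD libraries, 81 in both Control libraries and 27 to 49 in mixed pairs. Of 1380 entries of 1 to 10 Mb in the authors' deposited table, 65.9% were below 0 (median -0.14). Of them 6 were lower, or 0.435%, and 0 were higher, so called entries were no more frequent there than the 0.827% of lower entries over all spans in the authors' deposited table. Loops that joined 2 baits made up 2.68% and 3.36% of intrachromosomal loops in Brg1KD and 4.36% and 3.47% in Control, without overlap (exact permutation p = 0.33, 0.73 adjusted). The groups overlapped in this share with a minimum score of 7 (exact permutation p = 0.67) and of 10 (p = 1).

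Single contacts were named by the smallest unadjusted p in the authors' deposited table, 15 lower and 10 higher, 1 per promoter bait with a gene end on it. Loops in the region of an entry come from the same libraries as its fold change and are shown as the data behind it, not as separate support. Irx5 and Irx3 are homeodomain factors of neural and mesodermal patterning that lie in 1 cluster on chromosome 8, and each was named for its contact with the other's region. From the Irx3 bait (chr8:91799295-91803035) to the region of 92340371 to 92440000, 1 and 0 loops were listed in Brg1KD and 4 and 2 in Control. For this contact the authors' deposited table gives a log2 fold change of -0.70 ± 0.26 (SE, p = 0.0086). From the Irx5 bait to within 20 kb of the Irx3 bait, 0 and 0 loops were listed in Brg1KD and 3 and 3 in Control. All entries of both baits, 5 for Irx5 and 2 for Irx3, were below 0 in the authors' deposited table.

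Rbmxl2 and its neighbour Syt9, a synaptotagmin of vesicle release, had fewer loops to 1 stretch of chromosome 7. Both baits also belong to the 10 baits with the largest shortfall in loops per 1000, which were taken from baits whose groups do not overlap, so their loops are a description. From the Rbmxl2 bait (chr7:107208325-107210184), whose promoter with 29 CpG is printed above, 2 and 2 loops were listed in Brg1KD and 10 and 8 in Control. Every one of them ended between 107498656 and 107801179. All 13 entries of this bait were below 0 in the authors' deposited table, 8 of them lower, and the entry of smallest p was -1.19 ± 0.37 (SE) at 510 kb. The Syt9 bait (chr7:107369608-107371467) listed 0 and 1 loops to the same stretch in Brg1KD and 3 and 6 in Control.

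Among the other lower contacts named were those of Hmgb2, Chd2, Fancm with Fkbp3 and Morf4l2. At Hmgb2 the Brg1KD libraries listed 0 and 0 loops and the Control libraries 1 and 1, with a fold change of -0.89 ± 0.30 (SE) in the authors' deposited table. At Chd2, a chromodomain remodeller, there were 0 and 0 in Brg1KD and 2 and 1 in Control, with -0.76 ± 0.27 in the authors' deposited table. The bait shared by Fancm, a DNA translocase of the Fanconi anaemia pathway, and Fkbp3, a prolyl isomerase, listed 0 and 0 loops in Brg1KD and 2 and 2 in Control. It had -0.47 ± 0.16 in the authors' deposited table at a distance of 67.5 kb. Morf4l2, which encodes a subunit of histone acetyltransferase complexes, had -0.75 ± 0.28 in the authors' deposited table, on 0 and 0 loops in that region in Brg1KD and 1 and 0 in Control.

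The remaining lower contacts also had few listed loops. Phlpp1, a phosphatase of Akt, had 0 and 0 loops in Brg1KD and 3 and 1 in Control, with -0.67 ± 0.24 (SE) in the authors' deposited table. Zic5 had 0 and 0 in Brg1KD and 3 and 0 in Control, with -0.74 ± 0.24 in the authors' deposited table, so 1 Control library held all of its listed loops. Dlg1, a scaffold of cell polarity, likewise had 0 and 0 in Brg1KD and 0 and 3 in Control, with -0.67 ± 0.23 in the authors' deposited table. Sp8, a zinc finger factor of limb growth, had 0 and 0 in Brg1KD and 2 and 0 in Control, with -0.60 ± 0.22 in the authors' deposited table. Its window holds 2 CpG, the fewest among the lower contacts with a listed promoter. Of the 15 lower contacts named, those of Arf6, Atl1 with Map4k5, Jam2 and Ssbp2 had values from -0.58 to -0.51 in the authors' deposited table.

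In the authors' deposited table the unadjusted p of higher contacts ran from 0.0060 (Gm15319) to 0.024 (Grb7). That of lower contacts ran from 0.0010 (Irx5) to 0.0086 (Irx3), so the ranges overlap. Higher contacts mostly had weaker signal. Cd300ld3 had 1 and 1 loops in the region in Brg1KD and 0 and 0 in Control, with 0.63 ± 0.23 (SE, p = 0.0069) in the authors' deposited table. Meox1, a homeobox factor of the somites, had 4 and 4 in Brg1KD and 2 and 3 in Control, with 0.40 ± 0.18 in the authors' deposited table. Entpd8, an ectonucleotidase, had 0 and 3 in Brg1KD and 0 and 0 in Control, with 0.47 ± 0.19 in the authors' deposited table. Grb7, a signalling adaptor, had 2 and 0 in Brg1KD and 0 and 0 in Control, with 0.68 ± 0.30 in the authors' deposited table. The highest values, 2.00 ± 0.79 at Olfr600 and 1.66 ± 0.71 at Olfr965, rested on mean signals of 11.4 and 13.4 in the authors' deposited table, against 50.1 at Rbmxl2 and 329 at Fancm and Fkbp3.

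**Figure D3:**
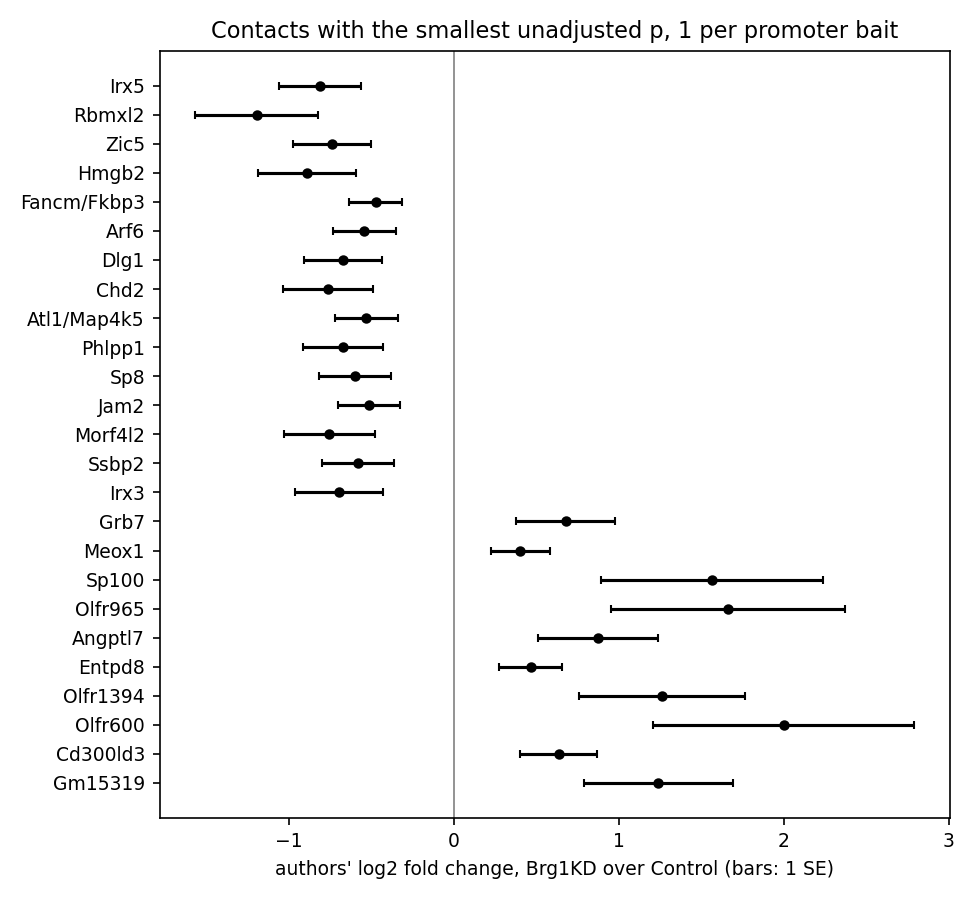
Log2 fold changes of the authors' table, Brg1KD over Control, for the 15 lower and 10 higher contacts named by smallest unadjusted p; points are the fold changes and bars 1 SE. The lower contacts lie between -1.19 (Rbmxl2) and -0.47 (Fancm and Fkbp3), and the widest bars belong to olfactory receptor baits and Sp100.

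By the number of loops listed at a bait, histone gene baits had the largest differences. Baits were named for the largest difference in loops per 1000 among those whose groups did not overlap, 10 in each direction. Because Brg1KD lists are shorter, an equal number of loops gives a higher value per 1000 in Brg1KD. Per 1000 loops, 1346 baits (8.83%) lay lower in both Brg1KD libraries and 2020 (13.3%) higher, while by loops as listed the numbers were 1365 (8.95%) and 706 (4.63%). The bait shared by H2ac11, H2bc11 and H4c9 on chromosome 13 listed 4 and 8 loops in Brg1KD and 18 and 15 in Control. That of H2ac8 and H2bc8 listed 1 and 3 in Brg1KD and 17 and 5 in Control, and that of H2bc9 and H3c7 listed 2 and 6 in Brg1KD and 10 and 9 in Control. Zfp184, a zinc finger gene among the histone genes of that chromosome, listed 3 and 5 in Brg1KD and 13 and 13 in Control. These 4 baits, with medians from -0.74 to -0.34 in the authors' deposited table, had 1 lower entry between them, at Zfp184.

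The histone genes of chromosome 13, which supply core and linker histones in S phase, lie in runs of neighbouring baits. Loops between the run of 12 baits (21715302 to 22044064) and the run of 19 baits (23529930 to 23935276) numbered 27 and 37 in Brg1KD and 97 and 56 in Control. Within the first run there were 17 and 13 in Brg1KD and 23 and 17 in Control, which touch. Within the second there were 7 and 10 in Brg1KD and 18 and 15 in Control. Control replicate 1 held the most loops between the runs. The Control libraries differed from each other there by more than the lower of them differed from Brg1KD replicate 2.

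Away from the histone clusters, Ceacam20, of the carcinoembryonic antigen family, listed 3 and 8 loops in Brg1KD and 11 and 14 in Control. Psg29, of the same family, listed 3 and 3 in Brg1KD and 9 and 7 in Control. The median of Psg29 in the authors' deposited table was 0.13, so its listing and its fold changes did not run the same way. The bait of Hcst and Nfkbid, immune signalling genes, listed 4 and 3 in Brg1KD and 6 and 11 in Control. Among baits with more loops in Brg1KD, that of H2-Ob, an MHC class II chain, listed 11 and 10 in Brg1KD and 6 and 9 in Control. Of its 12 entries, 7 were higher in the authors' deposited table, and their median was 0.48. Chrnb2, a nicotinic receptor subunit, listed 5 and 8 in Brg1KD and 1 and 4 in Control, with 2 higher entries in the authors' deposited table. Chd3, a remodeller of the NuRD complex, listed 9 and 9 in Brg1KD and 6 and 3 in Control. Nmrk2, a nicotinamide riboside kinase, listed 5 and 9 in Brg1KD and 1 and 3 in Control. Fam214b with Unc13b listed 6 and 5 in Brg1KD and 0 and 1 in Control. Rdh9, at 5 and 9 in Brg1KD and 5 and 3 in Control, touched in loops as listed.

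**Figure D4:**
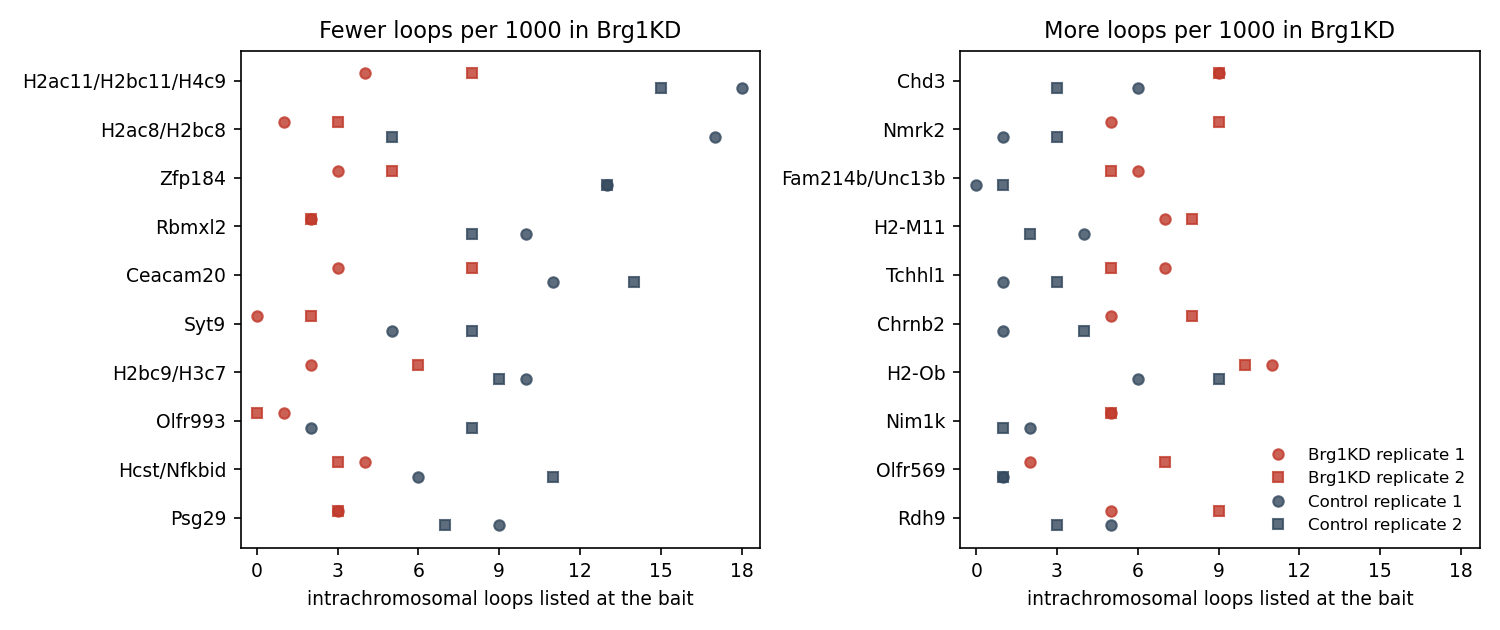
Intrachromosomal loops listed at the 10 baits with the largest negative and the 10 with the largest positive difference per 1000 loops, with Brg1KD (red) above Control (grey) for each bait; circles are replicate 1 and squares replicate 2. The histone bait of H2ac11 lies at 4 and 8 in Brg1KD and 18 and 15 in Control, and most positive differences are of a few loops.

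Gene lists were read by their loops per 1000 intrachromosomal loops and by the authors' fold changes at their baits. Of 35 lists, 14 lay lower in both Brg1KD libraries than in both Control libraries, 3 lay higher and 18 overlapped. Lists share some members, among them Foxa2, Sox17, Zic2 and Zic5, so they are not separate observations. Of single baits 8.83% lay lower and 13.3% higher per 1000 loops, which is not a like measure for lists of many baits. The median over baits was below 0 in 27 of the 35 lists in the authors' deposited table, and was -0.013 over all baits. Iroquois homeobox genes had 0.653 and 0.386 loops per 1000 in Brg1KD and 1.37 and 1.04 in Control, a ratio of means of 0.430 and of 0.476 within batch 1. All 29 entries of the 7 Iroquois baits were below 0 in the authors' deposited table, 9 of them lower, where 0.827% of all entries were. These 9 lie at 3 of the 7 baits, and 1.25% of all baits in that table had a lower entry. Entries of a bait overlap, and the contact between Irx3 and Irx5 is counted from both ends. Irx1 listed 0 and 2 loops in Brg1KD and 3 and 4 in Control, and the bait of Irx2 with the most loops 2 and 3 in Brg1KD and 7 and 6 in Control. The list of homeobox genes outside the Hox clusters, kept apart from the Iroquois genes, has 82 baits, with 50 and 36 loops in Brg1KD and 93 and 83 in Control. It had 4.08 and 2.78 per 1000 in Brg1KD and 6.07 and 5.77 in Control, a ratio of 0.579. Of its 65 baits with a loop, 16 had fewer loops in both Brg1KD libraries and 0 had more, where 8.95% and 4.63% of all baits did. Pax9, of the branchial arches and somites, listed 1 and 2 in Brg1KD and 6 and 2 in Control, which touch.

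Hox clusters did not follow a common direction. Hoxa genes had 0.490 and 0.694 loops per 1000 in Brg1KD and 1.04 and 1.11 in Control, but their median over baits was 0.020 in the authors' deposited table, with 5 of 11 baits below 0. Hoxb genes had 0.571 and 0.540 in Brg1KD and 0.326 and 0.347 in Control, on 7 and 7 listed loops in Brg1KD, a ratio of 1.65 that turned to 0.398 with a minimum score of 7. Hoxc genes had 3.26 and 3.16 in Brg1KD and 2.61 and 2.64 in Control, but as listed the groups touched, with 40 and 41 loops in Brg1KD and 40 and 38 in Control, a ratio of 1.04. Hoxd genes overlapped. None of these 4 lists had a lower or higher entry in the authors' deposited table. Among the lists, the highest median over baits in the authors' deposited table was that of Hoxc, 0.23.

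**Figure D5:**
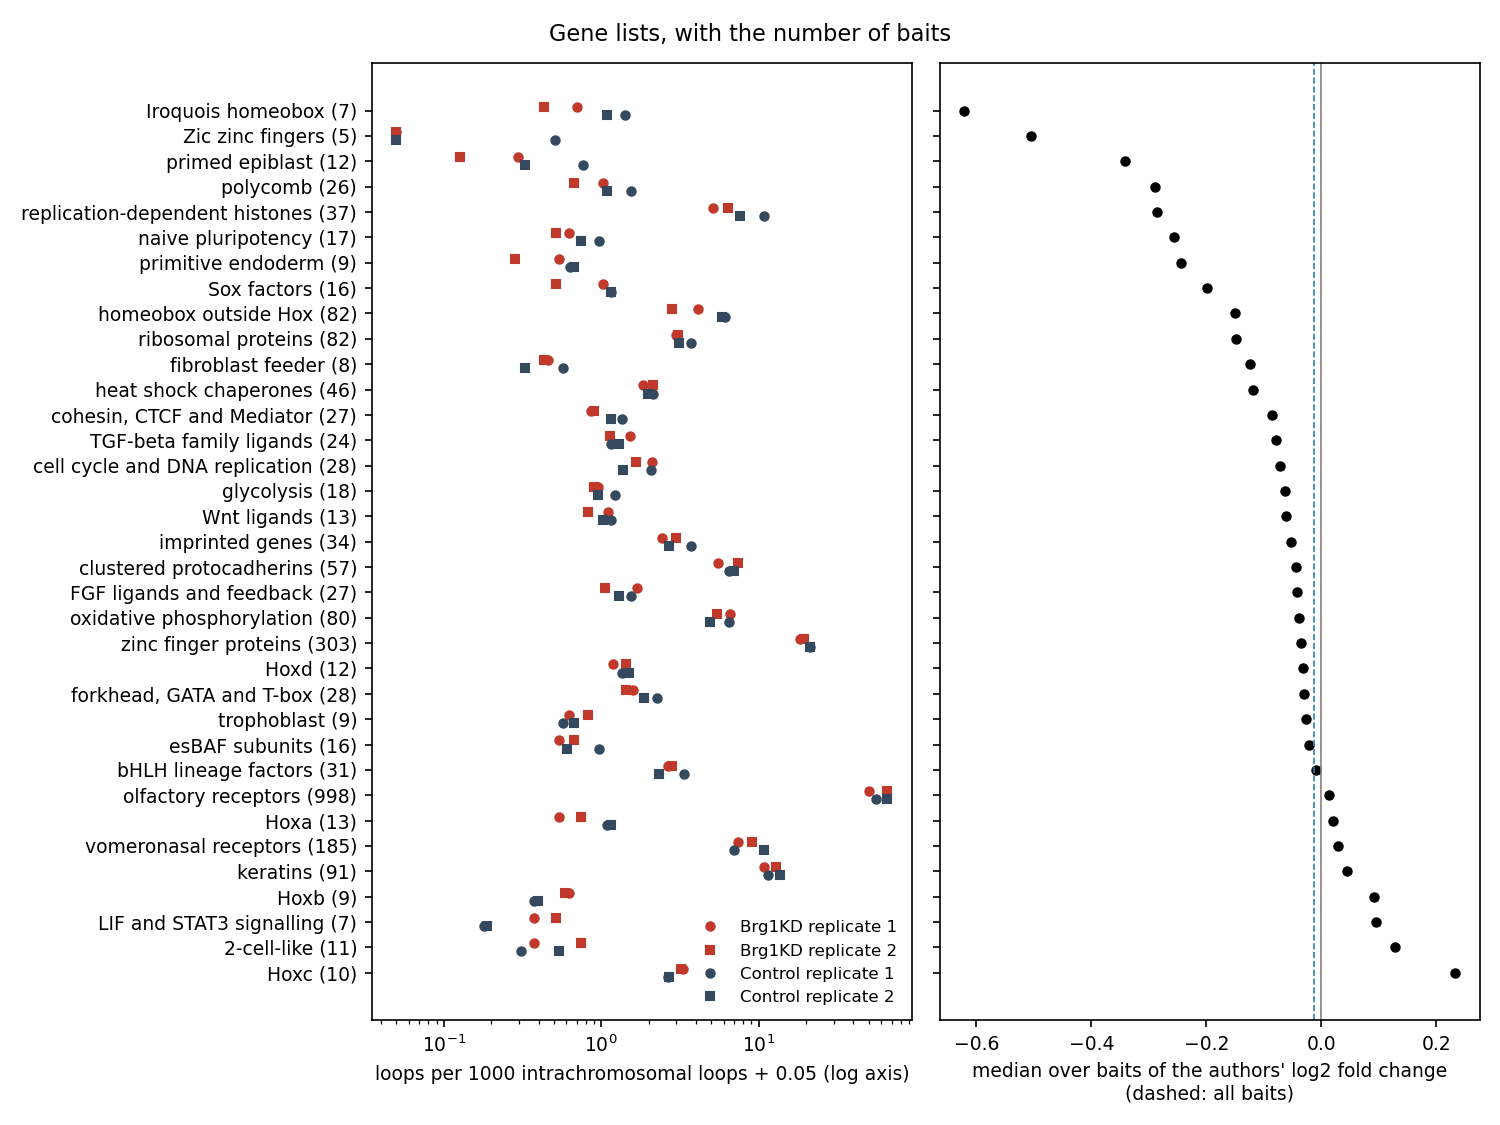
The 35 gene lists with their number of baits, ordered by the median log2 fold change over baits in the authors' table (right panel; dashed line, all baits). The left panel shows loops per 1000 intrachromosomal loops in each library on a log axis after adding 0.05, with Brg1KD in red above Control in grey; Iroquois genes are lowest and Hoxc genes highest by the median.

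Lists of stem cell regulators rested on few loops and did not share a direction. LIF and STAT3 signalling genes, which sustain self-renewal in serum and LIF, had 4 and 6 loops in Brg1KD and 2 and 2 in Control. Their ratio per 1000 was 2.93 overall and 2.50 within batch 1, and 0 with a minimum score of 7. Of these loops, Stat3 listed 2 and 4 in Brg1KD and 0 and 1 in Control. Pim1 listed 1 and 1 in Brg1KD and 0 and 0 in Control, while Pim3 went the other way, with 0 and 0 in Brg1KD and 1 and 1 in Control. Naive pluripotency genes had 7 and 6 loops in Brg1KD and 14 and 10 in Control, with ratios per 1000 of 0.643 overall and 0.625 within batch 1, which turned to 1.47 with a minimum score of 10. Sox2 listed 0 and 0 in Brg1KD and 1 and 1 in Control, and Mycn 0 and 0 in Brg1KD and 1 and 2 in Control. Pou5f1, which encodes Oct4, listed 3 and 3 in Brg1KD and 5 and 2 in Control, and Nanog 3 and 1 in Brg1KD and 1 and 2 in Control, both overlapping. Primed epiblast genes, with 3 and 1 loops in Brg1KD and 11 and 4 in Control, had a ratio of 0.323. It was 0.155 without Brg1KD replicate 1, 0.492 without Brg1KD replicate 2 and 0.579 without Control replicate 1. Zic genes had 0 and 0 loops per 1000 in Brg1KD and 0.457 and 0 in Control, so Control replicate 1 alone set their level. Zic2 and Zic5 also belong to the primed epiblast list, so these lists are not separate results. In Control, Zic2 listed 2 and 0 loops and Zic5 3 and 0, and in Brg1KD each listed 0 and 0. Polycomb genes had a ratio of 0.628, with 89.2% of 37 entries below 0 in the authors' deposited table, against 51.3% of all. Of these 37, 2 (5.41%) were lower, all at 1 bait, against 0.827% of all entries in that table. Phc1, a subunit of PRC1, listed 1 and 0 in Brg1KD and 5 and 1 in Control, which touch. Foxa2, a forkhead factor of the endoderm, listed 2 and 2 in Brg1KD and 7 and 5 in Control.

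Replication-dependent histones had 5.06 and 6.33 loops per 1000 in Brg1KD and 10.8 and 7.57 in Control. Of their 197 entries in the authors' deposited table, 4 (2.03%, at 3 baits) were lower and 0 higher. Of all entries in that table, 0.827% were lower and 0.373% higher. Zinc finger genes, which lie in large clusters, had 18.1 and 19.2 in Brg1KD and 21.2 and 21.1 in Control, a ratio of 0.882 that turned to 1.05 with a minimum score of 10. They had 14 lower entries (2.29%, at 9 baits) and 0 higher of 611 in the authors' deposited table. Ribosomal protein genes had 2.94 and 3.01 per 1000 in Brg1KD and 3.65 and 3.06 in Control. Of their 94 entries in the authors' deposited table, 5 (5.32%, at 4 baits) were lower and 2 (2.13%, at 2 baits) higher. Olfactory receptors, with a median of 1 CpG, had 50.2 and 65.3 per 1000 in Brg1KD and 55.7 and 65.7 in Control, and 0 lower and 6 higher entries of 2058 in the authors' deposited table. These 6 are 0.292%, below the 0.373% of higher entries over all baits in the authors' deposited table. Keratins, with a median of 3 CpG, had 10.7 and 12.9 in Brg1KD and 11.4 and 13.7 in Control, and 0 lower and 2 higher entries of 439 in the authors' deposited table. These 2 are 0.456%, near that share of all entries. Oxidative phosphorylation genes, with a median of 20.5 CpG, had 6.53 and 5.40 in Brg1KD and 6.46 and 4.86 in Control. These last 3 lists overlapped between groups.

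The targeted gene itself has 1 bait inside it (chr9:21634647-21636506, within Smarca4 at 21616106 to 21704230), with no gene end within 2 kb. It listed 6 and 3 loops in Brg1KD and 1 and 1 in Control. All 6 of its entries were above 0 in the authors' deposited table, from 0.21 to 0.42, with a smallest unadjusted p of 0.124. Listed loops at this bait did not overlap between groups, as at 4.63% of all baits in that direction. These are contacts of DNA and do not measure the level of Brg1.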

How the data were processed

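Per the labels' protocols, DSG and formaldehyde fixed the chromatin, micrococcal nuclease digested it, and promoter fragments were captured after proximity ligation. The authors deposited a loop list per library with an interaction score, listed from 5 up, and a comparison table. Per the file headers, the deposited table holds a mean normalized signal, log2 fold changes with standard errors, their quotient as a score, and p-values, raw and adjusted. Per the submitters' processing notes, bedtools was among the tools and mm10 the build. The loop caller, the comparison tool and its normalization are not given in the sources used here. No counts per library were found in these files, so no count test was run, as the design laid down for that case, and depth is unknown.

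Python 3.11.15 with pandas 2.3.3, NumPy 2.4.6 and SciPy 1.17.1 was used, and the summaries were tested on simulated data. Baits (19074) were named by protein-coding RefSeq gene ends of GRCm38.p6 on the bait (12033) or within 2 kb (13271 named in all). Gene ends include far ends. Promoter windows of 300 bases were matched to 11152 baits, with the highest CpG count where a bait has several. CpG classes were chosen after seeing the data. Members and gene lists were chosen with earlier results of these data known. Contacts were named by smallest p in the table (15 lower, 10 higher), baits by largest difference per 1000 loops (10 each way), and list members by their number of loops. Spans run between midpoints of the ends. Library values were compared by exact two-sided permutation tests, with p adjusted over 11 measures; intervals are 95% Wilson. Alternatives were score minimums, equal list length, leaving out each library, batch 1 alone, a replicate block, stricter p and other bait naming.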

Additional observations from a re-analysis of the deposited data

How the results depend on the processing

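Alternatives for CpG classes, for chromosome 13 and for histone baits were chosen after seeing the data. The median of CpG-dense promoters stayed below that of promoters with 0 to 4 CpG in all 7 alternatives tried, by -0.14 to -0.070 (log2), the smallest with classes by G+C. Without olfactory and vomeronasal receptor baits the difference was -0.14. Direction changed as follows. Interchromosomal loops differed by -210 with a minimum score of 7, -201 with 10, and -231 to 978 when a library was left out, against 374. Baits with a loop differed by 99.5 with lists cut to equal length, against -912. The share of 250 kb to 1 Mb differed by -3.17 to 0.888 percentage points when a library was left out, and that of over 10 Mb by 0.445 with a minimum score of 10. Among lists whose groups did not overlap, ratios crossed 1 with a minimum score of 7 for LIF and STAT3 signalling (0), Sox factors (1.07), Hoxb (0.398), zinc fingers (1.00) and glycolysis (1.28), and with 10 for naive pluripotency (1.47) and zinc fingers (1.05). Of the lists whose groups overlapped, 8 crossed 1 with a minimum of 7 and 8 with a minimum of 10. Lists lower in Brg1KD numbered 7 and 8 with minimums of 7 and 10, against 14, and lists higher numbered 1 with 10, against 3. With a minimum of 7, 397 baits had fewer and 595 more loops per 1000; without scaling, 706 had more. On average 50.3% of a Brg1KD library's loops were in a Control list within 5 kb, against 34.8% by identical ends, 55.2% within 10 kb and 56.7% with a minimum score of 10. In the other Brg1KD list, 46.7% and 45.3% were found within 5 kb. With p under 0.01, 41 entries of the authors' deposited table were lower and 8 higher, of which 26 and 0 were at CpG-dense promoters and 2 and 3 at those with 0 to 4 CpG. With 1 entry per bait there were 177 lower entries, 93 of them at CpG-dense promoters. Above the median mean signal, promoters with 0 to 4 CpG had 25 higher entries. The cause of these changes was not tested. With a replicate block, intrachromosomal loops differed by -2250 (exact sign permutation p = 0.5, the smallest 2 pairs allow), and the 2 replicates share only a number, as replicate 2 of the groups is in different batches. The unknown depth of the lists limits all counts of loops.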

Other observations

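The share of loops on a chromosome differed between groups without overlap on 14 of the 20 chromosomes without Y. Brg1KD libraries had 113 and 110 loops per 1000 on chromosome 11, against 98.3 and 98.7 in Control, and 76.0 and 70.4 on chromosome 17, against 68.5 and 66.3 in Control. On chromosome 13 there were 29.1 and 33.1 in Brg1KD and 39.7 and 36.6 in Control, and on chromosome 6 there were 39.0 and 41.4 in Brg1KD and 44.6 and 45.3 in Control. In all, 7 chromosomes lay higher and 7 lower in both Brg1KD libraries. The median log2 fold change of entries in the authors' deposited table was 0.047 on chromosome 11 and -0.11 on chromosome 13.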
